A study of Mus musculus with 6 samples.

Results

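The genes described here encode the vacuolar proton pump (V-ATPase) and the proteins that let an osteoclast secrete acid. They were chosen by function, as 37 mouse genes of a fixed list, out of 57180 gene identifiers in the expression table. All 37 were found through their symbols. This list, and the marker and related gene lists used below, were drawn up with earlier results of these data known. Counts of called genes in them are therefore descriptive. They comprise 9 genes for subunits of the membrane sector V0, 8 for subunits of the cytosolic sector V1, 9 for assembly and accessory factors, 6 for chloride transport, 3 for ion exchange and proton supply, and 2 for traffic to the ruffled border. RNA was sequenced from wild-type mouse bone marrow-derived macrophages, primary cells that can fuse into osteoclasts. All cells had been held under osteoclast-forming conditions for 5 days, the control group (3 libraries) without Visomitin and the treated group (3 libraries) with it. Visomitin, also called SkQ1, is a plastoquinone linked to a lipophilic cation that carries it into mitochondria. No dose is named in the labels, which also do not say whether the libraries of a group came from separate mice or cultures. The p-values therefore set each group difference against the variation between libraries of a group, and that variation may be technical.

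The V-ATPase couples ATP hydrolysis in V1 to the passage of protons through V0. In most cells it acidifies lysosomes and endosomes. In an osteoclast, lysosomal membrane carrying the pump fuses with the plasma membrane facing bone and forms the ruffled border, where the pump acidifies the space over the bone surface. Chloride follows through the antiporter CLC-7 and its partner OSTM1, carbonic anhydrase II supplies protons and bicarbonate, and the anion exchanger AE2 returns bicarbonate to the blood side. Several subunits exist as isoforms. The a3 protein, encoded by Tcirg1, and the d2 protein, encoded by Atp6v0d2, are the forms associated with osteoclasts, whereas d1 is found in most cells.

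Promoter windows of 4 members are shown first, because V-ATPase and lysosomal genes are known targets of the MiT/TFE transcription factors, which bind the 6-base E-box CACGTG. RefSeq promoter windows (build GRCm38.p6) were matched for 27 of the 37 members by symbol. The members with no matched window are Atp6v0a2, Atp6v0d2, Atp6v1b2, Atp6v1c1, Atp6v1g1, Atp6v1h, Rnasek, Dmxl1, Wdr7 and Car2. Both strands of the 250 bases before each annotated start were searched for CACGTG, for the related M-box TCATGTG and for the AP-1 motif TGANTCA, where N is any base. Atp6v0b, Atp6v1a and Clcn7, which fell with Visomitin, and Clcn6, which did not pass the test, all hold CACGTG. Their last 150 bases before the start are given 5′ to 3′ on the strand of the gene, with motif matches in capitals. They lie at chr4:117887330-117887479 (minus strand) for Atp6v0b, chr16:44139260-44139409 (minus strand) for Atp6v1a, chr17:25133241-25133390 (plus strand) for Clcn7 and chr4:148038814-148038963 (minus strand) for Clcn6.
Atp6v0b: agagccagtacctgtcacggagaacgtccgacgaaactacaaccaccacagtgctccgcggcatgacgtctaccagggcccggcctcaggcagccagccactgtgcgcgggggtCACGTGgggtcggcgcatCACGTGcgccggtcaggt
Atp6v1a: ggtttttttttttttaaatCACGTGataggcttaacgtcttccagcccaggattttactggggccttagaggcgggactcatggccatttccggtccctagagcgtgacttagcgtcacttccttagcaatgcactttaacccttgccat
Clcn7: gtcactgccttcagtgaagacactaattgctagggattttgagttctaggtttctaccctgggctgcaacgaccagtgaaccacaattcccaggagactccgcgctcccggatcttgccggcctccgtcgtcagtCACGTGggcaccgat
Clcn6: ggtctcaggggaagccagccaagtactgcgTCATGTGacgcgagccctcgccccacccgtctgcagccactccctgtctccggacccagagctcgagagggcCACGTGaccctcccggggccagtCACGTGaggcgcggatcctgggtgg

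In the Atp6v0b window CACGTG begins at positions -36 and -18, counted back from the start, in Atp6v1a at -131 and in Clcn7 at -15. The Clcn6 window holds CACGTG at -48 and -25 and an M-box further upstream. CACGTG was present for 3 of the 12 matched members that fell and for 4 of the 14 matched members that were tested and did not pass, against 6.86% of 27025 genes with a window. The other members with CACGTG are Ccdc115, Clcn4 and Vma21. TCATGTG was present for 4 members (Atp6v0c, Clcn5, Clcn6 and Clcn7) and for 3.72% of genes, and TGANTCA for Atp6v0a1 and Snx10 and for 7.82% of genes. A match describes the letters in the window and is not evidence of binding. Transcripts of the 4 MiT/TFE genes themselves did not pass the test. Mitf stood at 23.0, 15.8 and 16.5 TPM in control 1 to 3 and 13.2, 14.04 and 14.7 TPM in Visomitin 1 to 3 (limma adjusted p = 0.18), and Tfeb, Tfe3 and Tfec had group ranges that overlapped.

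Expression is given as TPM, the share of a gene among the transcripts of 1 library after correction for gene length, so that levels can be set side by side between genes. TPM keep no read counts, so the depth behind each value is unknown. Differences are Visomitin minus control on the log2(TPM + 1) scale, which understates changes of low genes, and fold values are taken from that scale. A gene was called when its limma p-value, adjusted over all 11753 genes tested, was under 0.05. The libraries held 11551 to 11821 genes at or above 1 TPM. The first principal component separated the groups, and the second, with 19.6% of the variance, set Visomitin 1 (25.1) apart from Visomitin 2 (-17.2) and Visomitin 3 (-16.8). Without Visomitin 1 the number of members that fell was again 19, with 5 of V0 and 7 of V1. The set differed, as Atp6v1g1 lost its call (limma adjusted p = 0.051) and Atp6ap2 gained one (0.049).

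Acid secretion genes were lower with Visomitin, and unevenly so. Of the 37 members 36 were tested, 19 fell, 0 rose and 17 did not pass, where 5.03% of all tested genes were called lower and 2.08% higher. No member had a higher value at an unadjusted limma p under 0.05 (0 genes), and 26 had a lower one. Over all genes tested, 2862 of 11753 had such a p in either direction. The median difference was -0.38 over the tested members and -0.03 over all genes tested. The group ranges did not overlap for 25 members that were lower among the 36 tested, against 18.4% of all genes. The largest falls were in the genes for proton supply and ion exchange (Car2, Slc9b2 and Slc4a2, 2.86-fold to 5.99-fold) and in Atp6v0d2 (3.36-fold). Every V1 gene fell, 5 of 8 tested V0 genes fell, and 1 gene each fell among the assembly factors and the chloride transporters. The scaling of libraries moved the balance of calls over all genes, from 591 lower and 244 higher to 689 and 481 after median-ratio scaling and to 651 and 559 after quantile normalization. The members that fell numbered 16 and 19 under these scalings, and 0 rose under either.

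These are bulk samples, in which fewer osteoclasts and less RNA per osteoclast cannot be told apart. All 10 marker genes of mature osteoclasts outside the members (Acp5, Ctsk, Mmp9, Dcstamp, Ocstamp, Calcr, Itgb3, Oscar, Siglec15 and Ckb) were called lower, with differences from -2.94 to -1.39. Their summed level was 12990 to 14045 TPM in controls and 3430 to 4038 TPM with Visomitin. Of 10 macrophage markers, which include Adgre1, Cd68 and Csf1r, 3 (Cx3cr1, Mertk and Mrc1) were called higher and 0 lower. Of all genes tested, 2.08% were called higher and 5.03% lower. Without Visomitin 2 none of Cx3cr1, Mertk and Mrc1 was called (limma adjusted p up to 0.096), and without any 1 control Mrc1 alone was. Of the 10 markers 8 had differences above 0 and 2 below, among them Cd68 (-0.20, limma adjusted p = 0.16), whose groups did not overlap. The 10 summed to 36440 to 40753 TPM in controls and 42120 to 47363 TPM with Visomitin. Most of this sum was Lyz2 (means 34413 and 39911 TPM), which did not pass (limma adjusted p = 0.18). The part of these marker shifts in the members' differences was not tested. Among the lists for other cell types, summed levels were highest for megakaryocyte and stromal markers. The erythroid markers were listed at 0 in all libraries, as were Cd79a and Pax5 of B cells, Cd3e, Cd8a and Ncr1 of T and NK cells, and Ly6g, Mpo and Elane of neutrophils. From the same lists, Cd4 (5.76 to 13.4 TPM) and S100a8 (8.82 to 19.5 TPM) were present in every library. The summed stromal and osteoblast markers ran from 110 to 334 TPM in controls and from 80.8 to 167 TPM with Visomitin, with 0 of 6 tested genes called (1 at an unadjusted p under 0.05). The dendritic cell list summed to 24.5 to 30.2 TPM and 8.16 to 11.9 TPM, most of it Itgax, which is also a macrophage and osteoclast gene, while Cd209a was listed at 0. Itgax was called lower (-1.52, limma adjusted p = 0.00094). The B cell list summed to 1.59 to 2.50 TPM and 4.62 to 6.52 TPM, and its 1 tested gene, Ighm, was called higher (0.91, limma adjusted p = 0.0497), a call lost in 9 of 15 alternative fits, among them those without each library other than Visomitin 1 (up to 0.15). The megakaryocyte list was mostly Pf4 (334 to 457 TPM and 352 to 485 TPM in sum). Of its 5 genes 3 (Itga2b, Gp1ba and Gp9) were under 1 TPM in all libraries. The neutrophil, T and NK, and mast cell lists summed to at most 19.5, 13.8 and 1.12 TPM.

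The V0 sector forms the proton path, with the membrane ring of c and c″ subunits, the a subunit that holds the proton channels, the d subunit that couples the ring to V1, and the small e subunit. Of 9 V0 genes 8 were tested, 5 fell and 3 did not pass (median -0.43), where 5.03% of all genes tested were called lower. Atp6v0c, for the ring subunit c, was the most abundant pump gene, at 3651, 3674 and 3828 TPM in controls and 2701, 2999 and 2878 TPM with Visomitin. All Visomitin libraries lay below all controls, a fall of 1.30-fold (log2 difference -0.38, SE 0.07, limma adjusted p = 0.022). Atp6v0b, for the second ring subunit, stood at 927, 1044 and 1029.85 TPM in controls and 751, 744 and 722 TPM with Visomitin, a fall of 1.35-fold (-0.43, SE 0.08, limma adjusted p = 0.014). Its groups did not overlap. These falls were small beside that of the osteoclast isoform of subunit d.

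Atp6v0d2 is known as the d isoform induced during osteoclast formation, where it is also needed for fusion of precursors. Its level (identifier ENSMUSG00000028238) was 157, 152 and 134 TPM in controls and 42.9, 44.0 and 42.6 TPM with Visomitin. The Visomitin libraries lay close together and far below any control. The fall was 3.36-fold (-1.75, SE 0.09, limma adjusted p = 2.77e-05). Atp6v0d1, the ubiquitous isoform, stood at 234, 234 and 224 TPM in controls and 219.7, 236 and 218 TPM with Visomitin, and its groups overlapped. Its difference was -0.04 (95% interval -0.21 to 0.13, limma adjusted p = 0.78), and the sign changed after median-ratio scaling (0.0017) and quantile normalization (0.03). The share of subunit d transcripts held by Atp6v0d2 was 40.1%, 39.3% and 37.4% in controls and 16.3%, 15.7% and 16.3% with Visomitin. The means were 39.0% ± 1.38 and 16.1% ± 0.34 (SD, n = 3; exact two-sided permutation p = 0.1, the smallest that 3 against 3 libraries allow). The summed subunit d level went from 378 to 268 TPM on average.

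Subunit a has 3 isoform genes among the members. Tcirg1, for the a3 isoform of osteoclasts and immune cells, held most of the transcripts, at 541, 572 and 541 TPM in controls and 339, 414 and 390.04 TPM with Visomitin. The groups did not overlap, and the fall was 1.45-fold (-0.54, SE 0.09, limma adjusted p = 0.012). Atp6v0a1 stood at 78.8, 83.5 and 74.5 TPM in controls and 69.4, 90.2 and 81.4 TPM with Visomitin, with overlapping groups (0.02, 95% interval -0.23 to 0.27; negative without control 3, -0.02, or Visomitin 2, -0.07). Atp6v0a2, the third isoform, stood at 23.5, 21.5 and 21.2 TPM in controls and 14.2, 18.7 and 16.0 TPM with Visomitin. Its groups did not overlap but it did not pass (-0.42, 95% interval -0.70 to -0.14, limma adjusted p = 0.077). The Tcirg1 share of subunit a transcripts was 84.1%, 84.5% and 85.0% in controls and 80.2%, 79.2% and 80.03% with Visomitin. The means were 84.5% ± 0.44 and 79.8% ± 0.55 (SD, n = 3; exact two-sided permutation p = 0.1). The ratio of Tcirg1 to Atp6v0a1 was 6.99 ± 0.23 in controls and 4.76 ± 0.15 with Visomitin (exact p = 0.1), and that of Tcirg1 to Atp6v0a2 was 25.04 ± 1.86 and 23.5 ± 1.18 (exact p = 0.3).

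Subunit e was represented by its ubiquitous gene. Atp6v0e stood at 519, 547 and 523 TPM in controls and 443, 388 and 353 TPM with Visomitin, without overlap, a fall of 1.35-fold (-0.43, SE 0.09, limma adjusted p = 0.033). Atp6v0e2, the tissue-restricted isoform, lay between 0.05 and 0.28 TPM in all libraries, was too low to be tested, and held at most 0.074% of subunit e transcripts in any library. Of the 2 tissue-restricted V0 isoforms tested, Tcirg1 and Atp6v0d2, both fell. The more widely expressed isoforms of the same subunits a and d (Atp6v0a1, Atp6v0a2 and Atp6v0d1) did not pass. Atp6v0e, the ubiquitous isoform of subunit e, fell. These calls depend on the threshold, since Atp6v0a2 did not pass with a difference (-0.42) close to that of Atp6v0e (-0.43). The V0 count depended on single libraries. It was 2 without control 1, control 2, control 3 or Visomitin 2 and 3 without Visomitin 3. These fits have fewer residual degrees of freedom. Tcirg1 lost its call without control 1 (limma adjusted p = 0.055), Atp6v0b without control 2, control 3 or Visomitin 2 (up to 0.065), and Atp6v0c and Atp6v0e without each library other than Visomitin 1 (up to 0.095 and 0.11). Processing mattered as well. Atp6v0e lost its call after median-ratio scaling (limma adjusted p = 0.10), Atp6v0c and Atp6v0e without the mean-variance trend of limma (up to 0.074), and Atp6v0b, Atp6v0c and Atp6v0e with no filter on low values (up to 0.15).

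**Figure D1:**
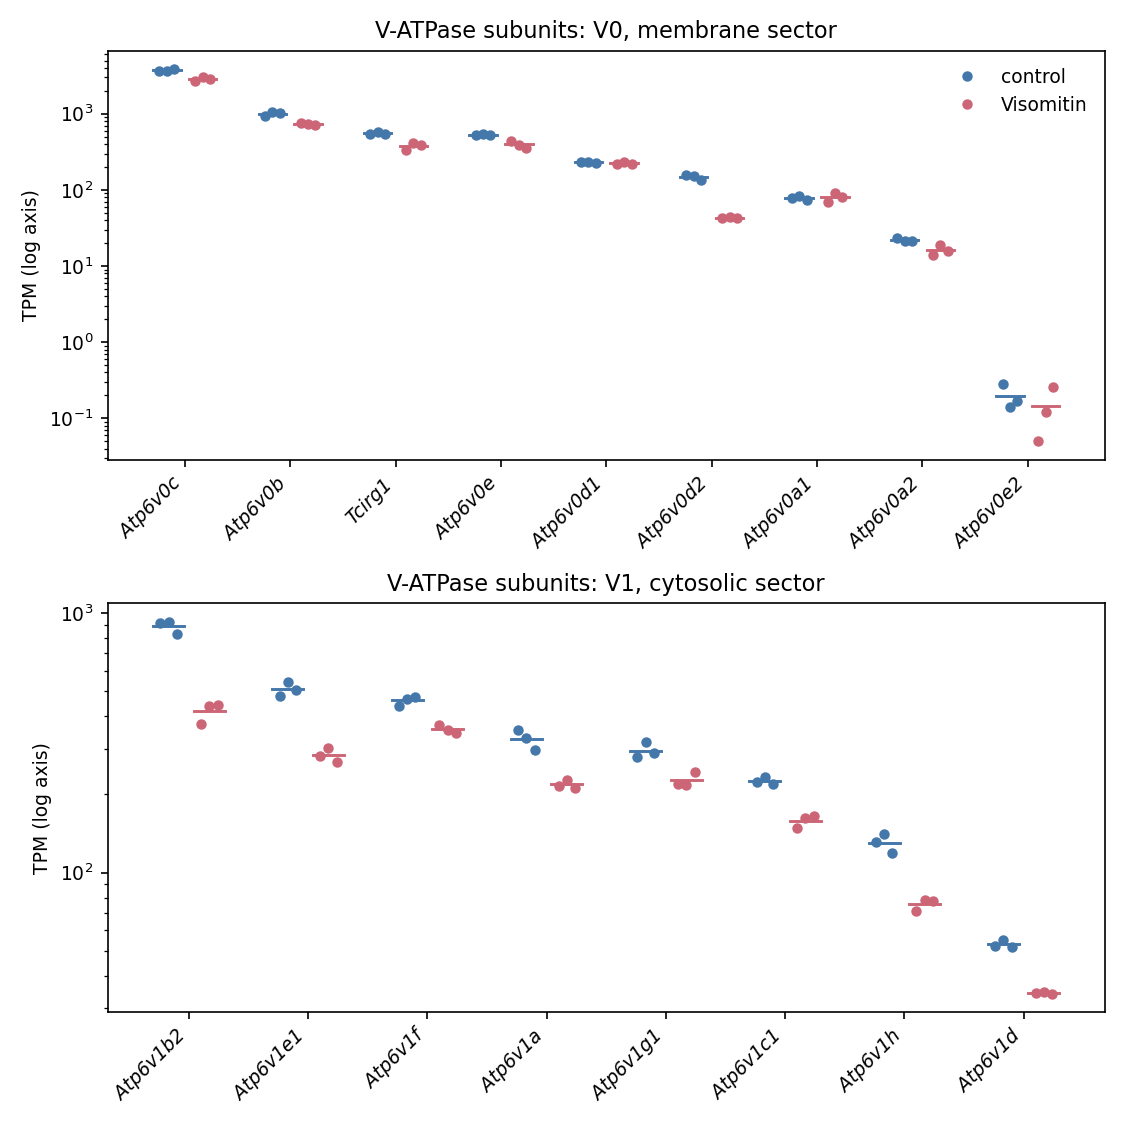
Level of each V0 and V1 subunit gene in TPM on a log axis, with 1 point per library (3 control, 3 Visomitin) and the group mean as a bar. Atp6v0d2 drops from 134 to 157 TPM to about 43 TPM while Atp6v0d1 overlaps between the groups, and each V1 gene is lower in every Visomitin library than in any control.

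**Figure D2:**
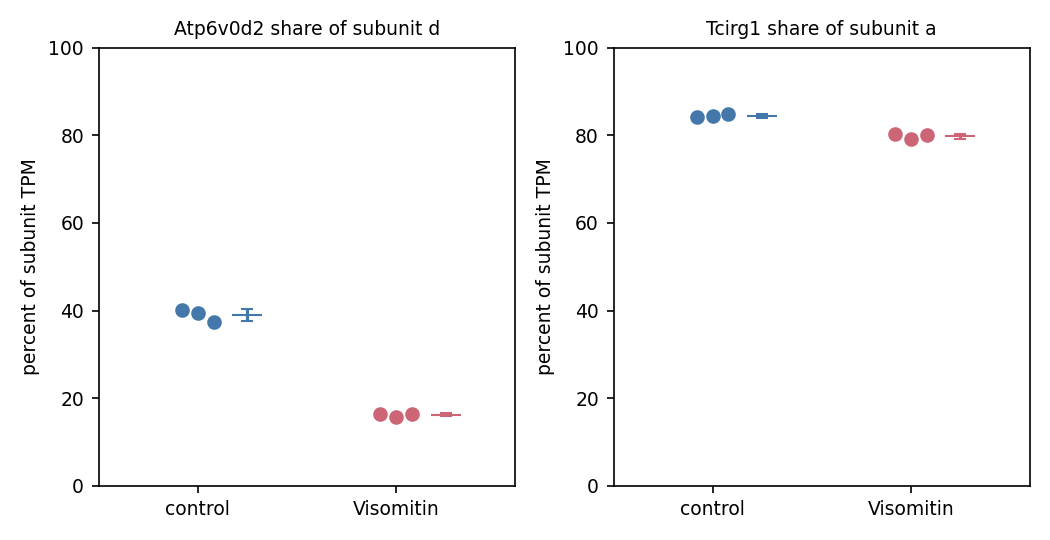
Share of the subunit d transcripts held by Atp6v0d2 and of the subunit a transcripts held by Tcirg1, in percent of TPM, with 1 point per library and the mean ± SD beside them (n = 3 per group). The Atp6v0d2 share falls from 39.0% to 16.1% and the Tcirg1 share from 84.5% to 79.8%.

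The V1 sector is the ATP-hydrolysing part, built around the catalytic subunit A and the nucleotide-binding subunit B, with a central rotor and outer stalks. All 8 V1 genes fell (median -0.59), by 1.29-fold to 2.14-fold, and for all 8 the groups did not overlap. Of all genes tested, 5.03% were called lower and 18.4% were lower without overlap. The largest fall was in Atp6v1b2, for the B2 isoform, at 920.0, 927 and 832 TPM in controls and 373, 440.15 and 441 TPM with Visomitin. This was 2.14-fold (-1.10, SE 0.09, limma adjusted p = 0.00036). Atp6v1a, for its partner A, went from 355, 329.7 and 297 TPM to 217, 228 and 212 TPM, a fall of 1.49-fold (-0.58, SE 0.09, limma adjusted p = 0.0075). The level of B2 relative to A, compared after the values were seen, was 2.73 ± 0.12 in controls and 1.91 ± 0.18 with Visomitin, without overlap (SD, n = 3; exact two-sided permutation p = 0.1).

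The stalk and rotor genes of V1 differed in how far they fell. Atp6v1e1, of the outer stalks, went from 481, 541 and 505 TPM to 282, 303 and 266 TPM (1.79-fold, limma adjusted p = 0.00086). Atp6v1h, whose subunit governs the coupling of ATP hydrolysis to V0, went from 131, 141 and 119 TPM to 71.2, 78.4 and 77.8 TPM (1.71-fold, limma adjusted p = 0.0025). Atp6v1d, of the central rotor, was the least abundant V1 gene, at 52.0, 54.7 and 51.8 TPM and 34.4, 34.5 and 34.1 TPM (1.52-fold, limma adjusted p = 0.0043). All 3 had tight groups with a gap between them. Atp6v1c1, which bridges V1 and V0, went from 224, 234 and 219 TPM to 149, 162 and 165 TPM (1.42-fold, limma adjusted p = 0.0082). The smallest falls were in Atp6v1g1 and Atp6v1f. Atp6v1g1, the partner of E in the stalks, went from 278, 319 and 289 TPM to 219, 218 and 244 TPM (1.30-fold, limma adjusted p = 0.037). Atp6v1f, of the rotor, went from 440.01, 466 and 477 TPM to 371, 355 and 344 TPM (1.29-fold, limma adjusted p = 0.023). Atp6v1g1 lost its call without each library other than Visomitin 3 (limma adjusted p up to 0.13) and Atp6v1f without each library other than Visomitin 1 (up to 0.096). The V1 count was 6 or 7 with any 1 library left out. Atp6v1f also lost its call after median-ratio scaling and without the mean-variance trend of limma (limma adjusted p = 0.068 in each). Atp6v1g1 also lost its call without that trend (0.083) and with no filter on low values (0.082).

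Set side by side, 8 of 8 tested V1 genes fell and 5 of 8 tested V0 genes, against 5.03% of all genes tested. The medians of -0.59 and -0.43 were each below the -0.03 of all genes tested, and no test of the difference between the sectors was made. Summed over genes, V0 stood at 6131 to 6376 TPM in controls and 4580 to 4934 TPM with Visomitin, and V1 at 2791 to 3014 TPM and 1715 to 1820 TPM. Atp6v0c makes up most of the V0 sum, and without it V0 stood at 2480.3 to 2654 TPM and 1824 to 1935 TPM. In controls the order of levels was Atp6v0c (3718 ± 96.5 TPM), Atp6v0b (1000.35 ± 64.1 TPM), Atp6v1b2 (893 ± 53.1 TPM), Tcirg1 (551 ± 17.9 TPM) and Atp6v0e (529.6 ± 14.8 TPM; SD, n = 3). The control libraries of Atp6v0b and Atp6v1b2 overlapped in range, as did those of Tcirg1 and Atp6v0e. Atp6v0e and Atp6v1e1 (509 ± 30.2 TPM) differed by less than their spread, as did Atp6v0d1 (231 ± 5.61 TPM) and Atp6v1c1 (226 ± 7.70 TPM). The lowest tested subunit gene among the members was Atp6v0a2 (22.1 ± 1.27 TPM).

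The V1 genes among the members are the ubiquitous isoforms, and their tissue-restricted counterparts, known from kidney, testis and brain, were close to undetected. Atp6v1b1, Atp6v1c2, Atp6v1e2 and Atp6v1g3 were listed at 0 in all 6 libraries, as was Atp6ap1l, and the V0 gene Atp6v0a4 reached 0.02 TPM in 1 library. Atp6v1g2, at 0.77 to 3.69 TPM, did not pass (-0.43, 95% interval -1.07 to 0.22). The restricted isoforms above 3.69 TPM in any library were thus Tcirg1 and Atp6v0d2.

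Assembly and accessory factors were called in 1 case. Of 9 genes 1 fell and 8 did not pass (median -0.26), where 5.03% of all genes tested were called lower. At an unadjusted limma p under 0.05, 5 of the 9 were lower, and 4 were lower with groups that did not overlap. Of all 11753 genes tested, 2862 had such a p in either direction, and 18.4% were lower without overlap. Rnasek, for a small membrane protein that associates with the pump, went from 423, 459 and 443 TPM to 366, 336 and 318 TPM, without overlap (1.30-fold, limma adjusted p = 0.030). The call was lost without each library other than Visomitin 1 (limma adjusted p up to 0.11) and after median-ratio scaling (0.095). The read-through gene Gm21988, which shares exons with Rnasek in GENCODE M21, was listed at 3.38 to 4.83 TPM. Atp6ap1, for the accessory glycoprotein Ac45, stood at 676, 715 and 643 TPM and 525, 601 and 567 TPM (-0.26, 95% interval -0.45 to -0.08, limma adjusted p = 0.094). Atp6ap2, for the (pro)renin receptor, stood at 167, 148 and 145 TPM and 127, 123 and 117 TPM (-0.32, 95% interval -0.52 to -0.13, limma adjusted p = 0.060; 0.04899 without Visomitin 1). Both had groups without overlap.

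Factors that assemble V0 in the endoplasmic reticulum did not pass. Vma21, Tmem199 and Ccdc115 had control means of 15.9, 32.0 and 33.6 TPM and differences of -0.33, -0.11 and 0.11, with limma adjusted p of 0.18 to 0.60, and their groups overlapped. The rabconnectin proteins DMXL1, DMXL2 and WDR7 join V1 to V0. Dmxl1, at 6.49, 5.48 and 3.68 TPM in controls and 2.89, 3.34 and 3.09 TPM with Visomitin, did not pass (-0.57, 95% interval -1.005 to -0.141, limma adjusted p = 0.11), and passed without control 3 (0.0492). Dmxl2 (0.15) and Wdr7 (-0.08; 0.001 with array weights) overlapped between groups.

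Chloride transport changed in 1 of 6 genes (class median -0.065), where 5.03% of all genes tested were called lower and 2.08% higher. Clcn7, for the lysosomal chloride-proton antiporter CLC-7, stood at 193, 206 and 188 TPM in controls and 107, 127 and 117 TPM with Visomitin. The groups were far apart, a fall of 1.67-fold (-0.74, SE 0.09, limma adjusted p = 0.0027). Ostm1, for the membrane partner that stabilises CLC-7, stood at 34.8, 36.1 and 30.1 TPM and 25.3, 29.4 and 26.9 TPM. It did not pass, although the groups did not overlap (-0.30, 95% interval -0.54 to -0.05, limma adjusted p = 0.14). The ratio of Clcn7 to Ostm1, compared after the values were seen, was 5.84 ± 0.38 in controls and 4.30 ± 0.07 with Visomitin (SD, n = 3; exact two-sided permutation p = 0.1).

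The endosomal members of the family did not pass and were lower in level. Clcn3, Clcn4, Clcn5 and Clcn6 had control means of 9.60, 27.3, 11.1 and 4.66 TPM, and differences from -0.09 to 0.14 with limma adjusted p of 0.55 to 0.96. Clcn6 was at 5.00, 4.31 and 4.68 TPM in controls and 5.31, 5.02 and 5.32 TPM with Visomitin. It was the only member whose Visomitin libraries all lay above all controls, as they did for 1402 of all 11753 genes tested. The signs of Clcn3, Clcn4 and Clcn5 changed in 1 or more alternative fits, with values between -0.20 and 0.12 in all of them. The 95% intervals of Clcn3, Clcn4, Clcn5 and Clcn6 all hold 0 and reach at most -0.38 (Clcn4) and 0.42 (Clcn6).

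Ion exchange and proton supply held the deepest falls. Car2, for carbonic anhydrase II (identifier ENSMUSG00000027562), stood at 105, 101 and 93.6 TPM in controls and 13.8, 19.0 and 15.1 TPM with Visomitin. The highest Visomitin library was far below the lowest control, a fall of 5.99-fold (-2.58, SE 0.12, limma adjusted p = 2.45e-05). Slc9b2, for the sodium-proton exchanger NHA2 (ENSMUSG00000037994), stood at 119, 137 and 115 TPM and 29.9, 36.4 and 32.7 TPM. This was a fall of 3.67-fold (-1.88, SE 0.11, limma adjusted p = 5.18e-05). Slc4a2, for the bicarbonate-chloride exchanger AE2 (ENSMUSG00000028962), stood at 202, 200.3 and 176 TPM and 58.9, 71.4 and 69.7 TPM, a fall of 2.86-fold (-1.52, SE 0.10, limma adjusted p = 9.93e-05). In all 3 genes the groups were separated by a wide gap. Exons of Slc4a2 overlap those of Fastk on the opposite strand in GENCODE M21 (38.6 to 56.8 TPM), and the labels do not say whether reads were counted by strand. These 3 differences lie within the range of the osteoclast markers (-2.94 to -1.39), as does that of Atp6v0d2, while those of the other pump subunits (-1.10 to 0.02) lie outside it.

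Traffic to the ruffled border was represented by a pair of genes. Snx10, for a sorting nexin needed for ruffled border formation (ENSMUSG00000038301), stood at 116, 117 and 92.9 TPM in controls and 49.7, 51.6 and 45.1 TPM with Visomitin. It fell 2.20-fold (-1.13, SE 0.11, limma adjusted p = 0.00088), without overlap. Plekhm1, for a Rab7-binding adaptor of lysosome fusion, stood at 57.6, 59.1 and 52.2 TPM and 37.02, 48.4 and 43.6 TPM, and did not pass despite groups that did not overlap (-0.39, 95% interval -0.65 to -0.12, limma adjusted p = 0.084). Of the 6 members known from inherited osteopetrosis, grouped here after the values were seen, Tcirg1, Clcn7, Snx10 and Car2 fell, and Ostm1 and Plekhm1 did not pass.

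**Figure D3:**
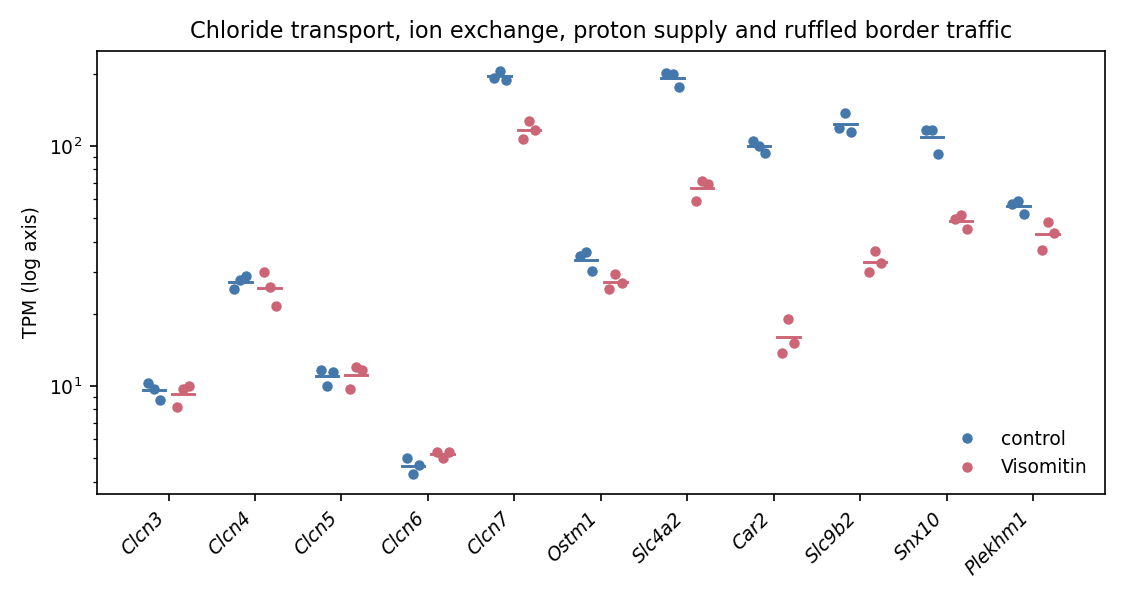
Level of the chloride transport, ion exchange, proton supply and ruffled border genes in TPM on a log axis, with 1 point per library (3 control, 3 Visomitin) and the group mean as a bar. Car2, Slc9b2, Slc4a2, Snx10 and Clcn7 show a gap between the groups, while Clcn3, Clcn4 and Clcn5 overlap.

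**Figure D4:**
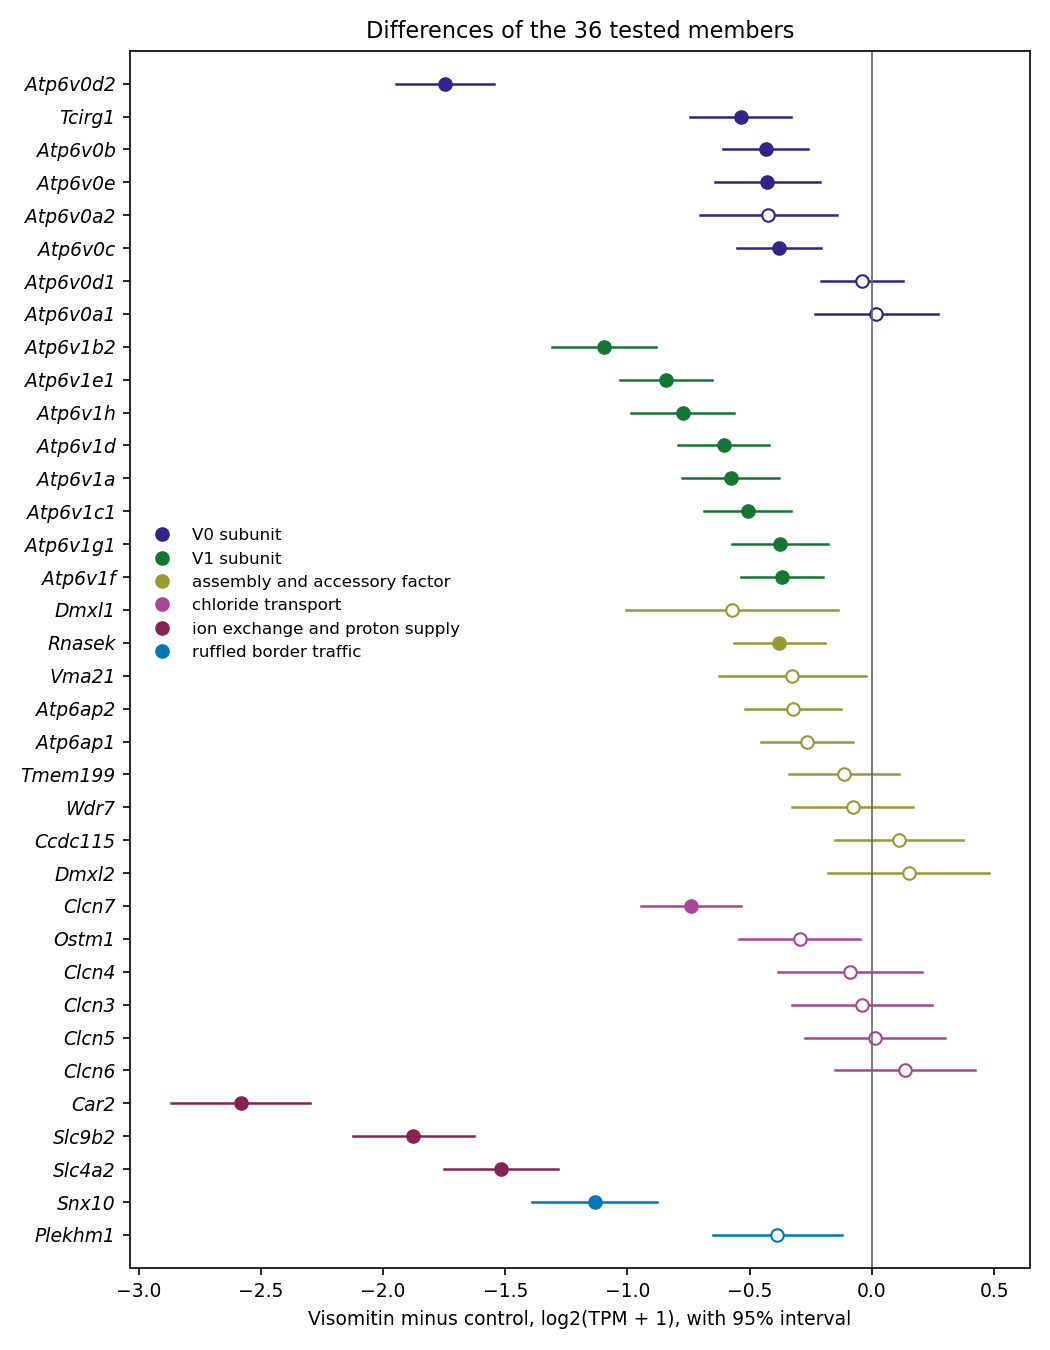
Difference of each of the 36 tested members, Visomitin minus control on the log2(TPM + 1) scale, with its 95% interval from limma, coloured by class. Filled points passed an adjusted p of 0.05 (19 members) and open points did not (17 members).

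The calls differed in how firmly they stood. Of the 19 members that fell, 12 kept their call in all 16 alternative fits: Atp6v0d2, Atp6v1a, Atp6v1b2, Atp6v1c1, Atp6v1d, Atp6v1e1, Atp6v1h, Clcn7, Slc4a2, Car2, Slc9b2 and Snx10. All 19 had values below 0 in all 16. The total of members that fell was 13 without control 1, control 2 or Visomitin 2, 14 without control 3 and 15 without Visomitin 3.

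Few genes of neighbouring lysosomal machinery were called. For all genes tested, the shares were 5.03% called lower and 2.08% called higher, and 2862 of 11753 had an unadjusted limma p under 0.05 in either direction. In the lysosomal nutrient-sensing complexes that bind the V-ATPase (Ragulator, the Rag GTPases and folliculin), 1 of 12 tested genes rose and 0 fell (median 0.04). This was Rragc, at 97.5, 94.2 and 83.6 TPM in controls and 117, 131 and 119 TPM with Visomitin (0.41, limma adjusted p = 0.034), a call lost without each library other than Visomitin 1 (up to 0.13). Of 21 tested genes for lysosome positioning and fusion, 0 were called and 4 were higher at an unadjusted p under 0.05 in limma (median 0.05). Of 3 tested regulators with a TLDc domain, Oxr1 fell, at 57.0, 50.6 and 35.5 TPM and 32.5, 22.4 and 20.7 TPM (-0.90, limma adjusted p = 0.041). That call was lost under both scalings and without control 1, control 2, Visomitin 2 or Visomitin 3 (up to 0.13).

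Among the other acid-base genes tested none was called lower, where 5.03% of all genes tested were called lower and 2.08% higher. Of 14 other carbonic anhydrase genes 3 were tested and 0 called (1 higher at an unadjusted p under 0.05 in limma). Car13, a cytosolic relative of Car2 named after its values were seen, stood at 12.4, 12.5 and 11.4 TPM in controls and 12.4, 11.9 and 12.6 TPM with Visomitin, and its groups overlapped (0.02, 95% interval -0.21 to 0.26). Of 12 tested genes for other bicarbonate, proton and chloride transporters, 2 rose and 0 fell (median -0.004; 1 lower at an unadjusted p under 0.05). Slc26a11, for a lysosomal and plasma membrane anion transporter, went from 7.99, 7.54 and 7.55 TPM to 15.6, 16.7 and 13.2 TPM (1.85-fold higher, 0.89, limma adjusted p = 0.0049). Slc9a9, for an endosomal sodium-proton exchanger, went from 16.8, 15.3 and 15.5 TPM to 23.0, 27.2 and 26.1 TPM (0.65, limma adjusted p = 0.011; 0.054 without Visomitin 2).

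**Figure D5:**
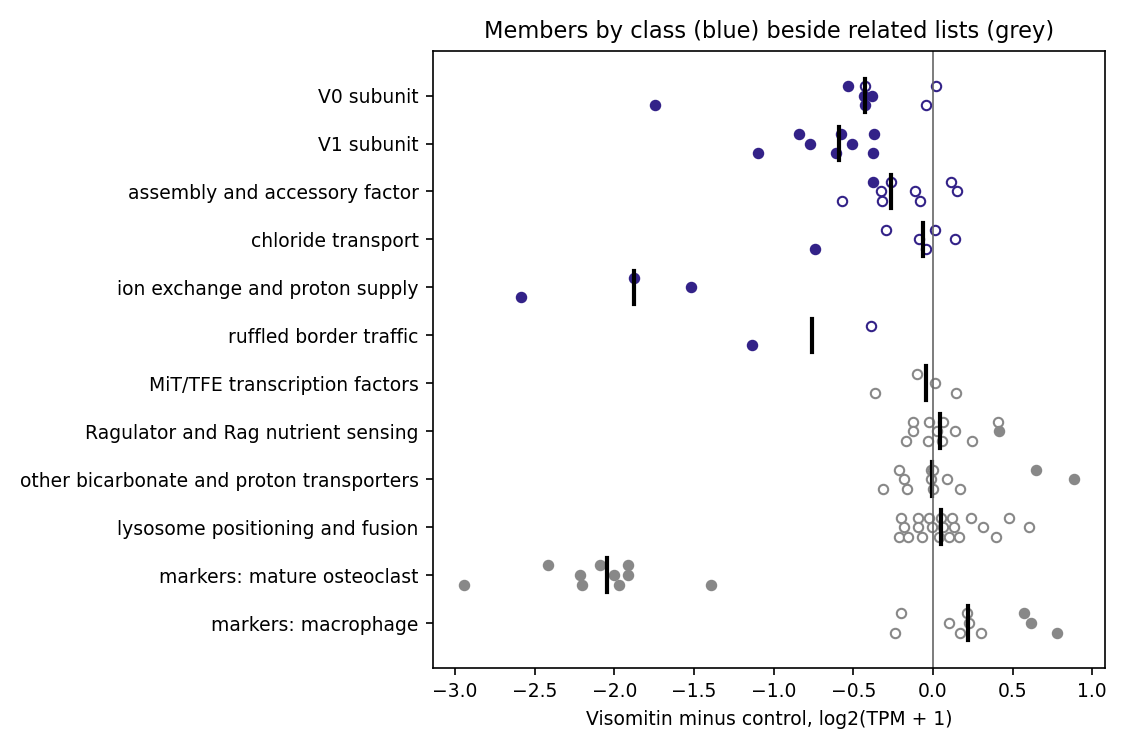
Difference of each tested gene, Visomitin minus control on the log2(TPM + 1) scale, for the 6 classes of members (blue), 4 related gene lists and 2 marker lists (grey), with a bar at the median. Filled points passed an adjusted p of 0.05. Ion exchange and proton supply lie with the mature osteoclast markers (median -2.04), V1 at -0.59 and V0 at -0.43, and the related lists near 0.

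Near-identical copies could share reads with some members. Atp6v0c-ps2 shares 92.9% of its 31-base words with Atp6v0c and was listed at up to 0.91 TPM, and a copy of Atp6v1f at up to 0.98 TPM. Copies of Atp6v1g1, Ccdc115 and Vma21 were listed at 0. The 3 genes that share over 50% of their words with Clcn7 (Gm10181, Gm11027 and Gm17604) had no identifier in the expression table. No level can be given for them. Wdr7 overlaps Txnl1 on the opposite strand (27.7 to 34.2 TPM). Neither the labels nor the table say how reads common to several genes were counted.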

How the data were processed

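The authors deposited 1 table of TPM values per gene and library, used as deposited. The submitters' processing notes name fastp, HISAT2 and StringTie; no version, genome build, annotation or strand setting is named there. Per the labels' protocols, libraries were stranded mRNA preparations from TRIzol-extracted, DNase-treated RNA. Symbols came from GENCODE M21 names and were found for 51884 of 57180 identifiers. Groups follow the treatment label (3 control, 3 Visomitin).

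A gene was tested if 3 or more of the 6 libraries reached 1 TPM (11753 genes). Values were transformed to log2(TPM + 1) and fitted across all genes with limma 3.58.1 (R 4.3.3) using eBayes with a mean-variance trend, on a design that holds the group alone, two-sided, with Benjamini-Hochberg adjustment over all of them. The fit was tested on simulated data. Shares and ratios within a library were compared by exact permutation of the group labels. Alternatives were other pseudocounts, filters, scalings, variance models, a block for the library number, and leaving out each library. The members and gene lists were chosen with earlier results of these data known. Values in every library are given for members that were called, for isoforms of subunits a, d and e, and for named acid secretion genes; related genes are named if called.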

Additional observations from a re-analysis of the deposited data

How the results depend on the processing

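Of 16 alternative fits, all left 0 members called higher, and the count called lower was 13 to 24 beside 19. With no filter on low values or without the trend it was 14, and with array weights 24. The V0 count was 5, against 2 with no filter, 3 without the trend and 2 to 5 with 1 library left out. The V1 count was 6 to 8 throughout. The labels state no pairing of libraries; residual correlations within a number were 0.05, 0.02 and 0.17, and the replicate block left 19 members, 5 V0 and 8 V1 genes called lower. Over all genes, 591 called lower became 308 with no filter, 1572 with array weights, and 232, 325, 279 and 305 without control 1, control 2, control 3 and Visomitin 2. The 244 called higher became 73, 1263, 67, 118, 83 and 54 in the same order, 168 without the trend, 411 without Visomitin 1, 126 without Visomitin 3, and 481 and 559 after median-ratio scaling and quantile normalization.

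Sign changes were confined to genes that did not pass in any of these fits: Atp6v0d1 (0.0017 after median-ratio scaling, 0.033 after quantile normalization), Wdr7 (0.00101 with array weights), Clcn3 (0.00733 after quantile normalization; -0.10 to 0.0389 with 1 library left out), Atp6v0a1 (-0.0692 to 0.118), Clcn4 (-0.196 to 0.0284) and Clcn5 (-0.0522 to 0.0995, each with 1 library left out). The Atp6v0e2 share of subunit e transcripts differed by 0.0012 percentage points, and by -0.016 to 0.015 with 1 library left out. TPM keep no depth, so what depth limits cannot be stated; Atp6v0e2, at no more than 0.28 TPM, was not tested.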
